A study of Homo sapiens with 15 samples.

Results

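The genes examined here encode the proteasome and the proteins that build and switch it on: every protein-coding gene of the deposited count table whose symbol is PSM followed by a letter from A to G and a number, together with the assembly factor gene POMP, the cap subunit genes SEM1 and ADRM1, and the transcription factor gene NFE2L1. Pseudogenes were left out. This rule, which uses no measured value, found 52 of the 62754 genes in the table, and 50 of them were abundant enough to be tested. RNA had been sequenced from wild-type (WT) MCF10A cells, an established line of human breast epithelial cells. The cells grew in glutamine-free DMEM/F12 to which glutamine had been added at 0.04, 0.12, 0.20 or 0.28 mM, or in DMEM/F12 with its normal 2.5 mM (full medium). Every group had 3 biological replicates, 15 libraries in all, and the growth medium named for the line holds mammary epithelial supplements, cholera toxin and antibiotics. How long the cells spent at each concentration is not given in the sources used here. The series title speaks of transcriptome and proteome responses under glutamine limitation, and the RNA values below address the first of these.

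The proteasome is the large protease that degrades proteins tagged with ubiquitin and returns their amino acids to the cell. Its core is a barrel of beta rings flanked by alpha rings, and the caps at its ends recognise, unfold and feed in the tagged protein with a ring of ATPases and a set of non-ATPase subunits. Dedicated chaperones build core and cap, other activators can replace the cap, and NFE2L1 (also called TCF11 or NRF1) is the transcription factor known to raise proteasome genes together when proteasome activity falls, through elements in their promoters.

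Promoter sequences were available for 46 of the 52 genes from RefSeq (GRCh38.p14, 250 bases before to 50 after each transcript start), and they were searched on both strands for TGACNNNGC, the core of the antioxidant response element that NFE2L1 and NFE2L2 bind. It stood in 17 of the 46 genes and in 30.5% of their 59 promoter entries, against 13.3% of all 35116 human promoters in the same set. The stretches below are shown because their genes are among those that moved at 0.04 to 0.20 mM glutamine. The first 4 belong to genes that fell and the last 2 to genes that rose. Capitals mark the element, and each run is written 5' to 3' on the strand of the gene. 
ADRM1 (chr20:62302728-62302797, plus strand): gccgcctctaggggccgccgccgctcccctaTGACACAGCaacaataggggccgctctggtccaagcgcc
PSMB3 (chr17:38752606-38752675, plus strand): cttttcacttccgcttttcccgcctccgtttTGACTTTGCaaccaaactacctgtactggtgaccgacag
PSMC5 (chr17:63827633-63827702, plus strand): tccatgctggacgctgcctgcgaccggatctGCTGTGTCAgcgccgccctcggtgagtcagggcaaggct
PSMD3 (chr17:39980737-39980806, plus strand): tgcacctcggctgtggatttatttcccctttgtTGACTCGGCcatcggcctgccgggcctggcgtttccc
PSME4 (chr2:53970994-53971063, minus strand): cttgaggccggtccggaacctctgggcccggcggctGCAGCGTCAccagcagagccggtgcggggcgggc
PSME1 (chr14:24136077-24136146, plus strand): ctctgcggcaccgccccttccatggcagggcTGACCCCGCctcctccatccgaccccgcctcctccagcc

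The element reads on the gene's own strand in ADRM1, PSMB3, PSMD3 and PSME1 and on the other strand in PSMC5 and PSME4. The PSMC5 stretch precedes an annotated start that lies inside the span of the gene. Positions of genes below are those of RefSeq in GRCh38.p14. Of the genes with a promoter entry, 5 of the 9 that fell at 0.04 mM hold it and so do 11 of the 34 that passed no test there, as does PSME4, which rose. The CCAAT box, another element of many promoters (letters CCAAT, both strands), stood in 23 of the 46 genes and in 40.7% of their promoter entries, against 34.6% of all promoters. It stood in 6 of the 9 that fell at 0.04 mM and in 16 of the 34 that passed no test there, so that split is not particular to TGACNNNGC. These are matches of letters and not measured binding. PSMA7, PSMB1, PSMB6, PSMB7, PSMD4 and PSMG3 had no entry.

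Each library held between 3704170 and 13361406 gene counts, and the proteasome genes took 0.515 to 0.626% of them. The lowest depth was that of 0.04 mM replicate 3. Mitochondrial ribosomal RNA took 2.97% of the counts of that library and 1.62% of 0.12 mM replicate 3, and at most 0.402% in the others. All 8 breast epithelial markers were present in every group (summed 11430 to 17700 CPM, counts scaled to library size), led by KRT5. Immune markers summed to at most 0.54 CPM, with CD3E at 0, and of the endothelial markers CDH5 was at 0 and PECAM1 alone reached 1 CPM. Their summed level was 3.34 to 5.55 CPM in full medium, 4.92 to 11.9 CPM at 0.04 mM, 6.11 to 8.74 CPM at 0.12 mM, 6.9 to 8.09 CPM at 0.20 mM and 4.45 to 7.67 CPM at 0.28 mM. Of the 5 fibroblast markers LUM was at 0, and the summed level was 50.4 to 61.0 CPM at 0.04 mM against 33.2 to 45.7 CPM in full medium. It was 47.7 to 55.3 CPM at 0.12 mM, 41.0 to 56.2 CPM at 0.20 mM and 37.5 to 54.3 CPM at 0.28 mM. The ranges at 0.20 and 0.28 mM overlap that of full medium. DCN reached 45.7 CPM and COL1A1 43.7 CPM, and COL1A2 stayed at or under 0.36 CPM. The part of these markers in the results was not tested. In bulk RNA, fewer cells of a type and less RNA per cell cannot be told apart.

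By level per length, the proteasome genes spanned a wide range. TPM, counts scaled to gene length and library size, were computed from the counts and the total exon length of each gene, and are given as mean ± SD over all 15 libraries. PSMA7, an alpha ring subunit, was highest by this length at 411 ± 42.6 TPM. It was followed by the beta ring subunit PSMB4 (354 ± 40.4), the cap scaffold subunit PSMD2 (354 ± 43.4) and PSMB3 (329 ± 43.2), neighbours that lay within their spread of each other. The catalytic subunits PSMB7 (214 ± 18.5), PSMB6 (186 ± 16.6) and PSMB5 (177 ± 22.6) also lay close together. NFE2L1 stood at 111 ± 9.46 TPM and PSME4 at 78.3 ± 14.8 TPM. By these means PSME4 and PSMD11 (78.1 ± 9.91 TPM) stood in the middle of the 52 genes. The median taken from the values per library was 76.7 TPM.

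Low in the order were SEM1 (8.13 ± 0.824 TPM), PSMG4 (6.53 ± 1.11 TPM) and, by total exon length, 6 tested genes under 5 TPM. PSMA1, PSMA2, PSMA6, PSMB10 and PSMD9 are 5 of these 6, at 1.39 to 4.63 TPM. In GENCODE 29, 43.8 to 81.0% of the exonic bases of their principal transcripts also lie in a second gene on the same strand, a read-through transcript with the neighbouring gene. Counting rules can leave out reads that fit 2 genes, so these 5 levels are uncertain, and the part of the overlap in them was not tested. The sixth, PSMB9, had 1.37 ± 0.656 TPM and only 163 counts in all libraries together. The testis-type alpha subunit gene PSMA8 had 1 count and the thymus-type beta subunit gene PSMB11 had 0, which allows up to 3 counts over all libraries, and neither was tested. Levels depend on the length used: with the principal transcript's length PSME3 went from 186 to 657 TPM, PSMG4 from 6.53 to 55.6 and SEM1 from 8.13 to 48.8. By that length PSME3 and PSMB4 (543) stood above PSMA7 (496), and PSMA1 (6.96) and PSMA6 (9.07) above 5 TPM.

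**Figure D1:**
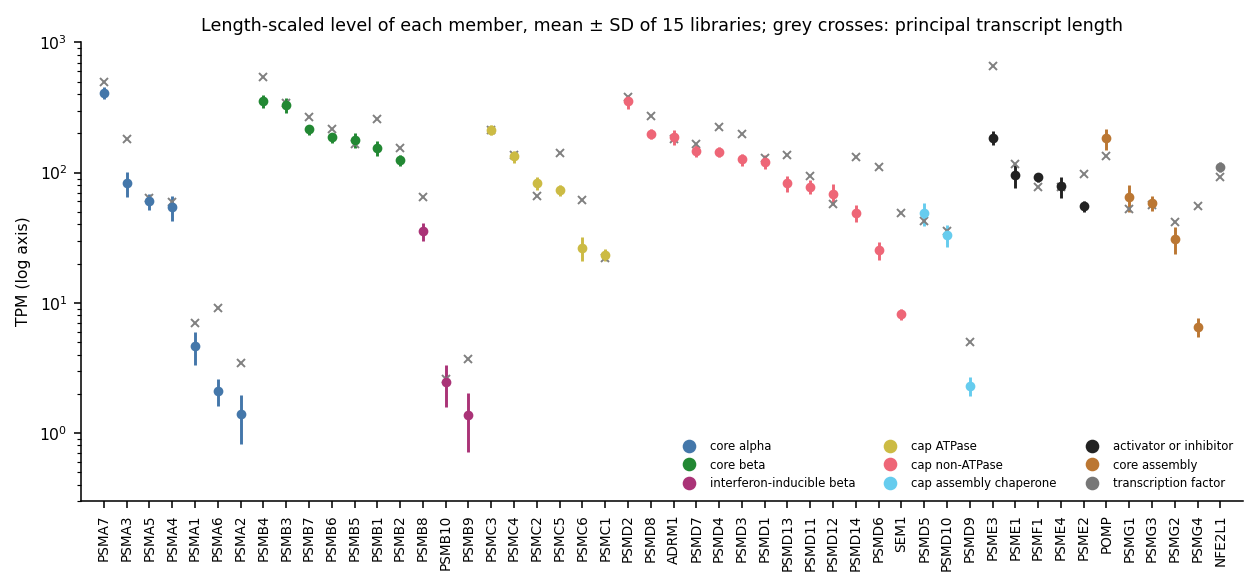
Level of the 50 tested proteasome genes in TPM on a log axis, mean ± SD of 15 libraries, with total exon length for the points, genes ordered by level inside each role and grey crosses for the level by principal transcript length. By total exon length PSMA7 is highest at 411 TPM and PSMA1, PSMA2, PSMA6, PSMB9, PSMB10 and PSMD9 lie under 5 TPM, and by principal length PSME3 is highest at 657 TPM.

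Changes of the proteasome genes under glutamine limitation were small and mostly negative. At 0.04 mM 41 of the 50 tested genes had a negative log2 change against full medium, with a median of -0.15, while the median over all 13828 tested genes was 0.01 and 49.1% of them were negative. The medians of the proteasome genes were -0.10 at 0.12 mM, -0.09 at 0.20 mM and -0.07 at 0.28 mM, with 37, 33 and 38 of 50 negative. All 4 comparisons share the same 3 full-medium libraries, so they are not independent of each other. Same-numbered libraries of different groups deviated together, so the values given first come from edgeR's quasi-likelihood test blocked on replicate number. Each is a log2 fold change with a standard error (SE), and p-values were adjusted by Benjamini-Hochberg over 13828 genes. For edgeR the SE is the size of the change divided by the square root of the test's F statistic. The words rose and fell are kept for an adjusted p under 0.05. What a replicate number stands for is not stated, so p-values measure the spread between these samples.

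At 0.04 mM 11 proteasome genes fell and 1 rose, when 6.23% of all genes fell and 7.21% rose. At 0.12 mM 7 fell and 2 rose, beside 3.9% and 4.41% of all genes. At 0.20 mM 12 fell and 2 rose, beside 7.15% and 7.67% of all genes. At 0.28 mM 1 fell and 0 rose, beside 0.846% and 1.23% of all genes. At an unadjusted p under 0.05, 11 were lower and 2 higher there. The share of all genes at that unadjusted threshold was not computed, so these counts are not read as a result. DESeq2 with the block called 2 lower and 0 higher at 0.28 mM, and 339 of all 13828 genes. Across the 4 comparisons 14 genes fell at least once, 3 rose at least once, none did both and 33 passed no test. Of the 14, ADRM1 fell at all 4 concentrations and PSMB2, PSMC4, PSMD3 and PSMG3 at the 3 lowest.

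Without the block 0 of the 50 genes passed edgeR's test in any comparison, where 0.0434% of all genes did at 0.04 mM, 0.0145% at 0.20 mM and 0% at 0.12 and 0.28 mM. At an unadjusted p under 0.05 that fit had 6 lower and 1 higher at 0.04 mM, and 2 lower and 1 higher at 0.12 mM. It had 4 lower and 1 higher at 0.20 mM, and 2 lower and 0 higher at 0.28 mM. For these counts too the share of all genes was not computed, and no result is read from them. DESeq2 without the block called 1 gene, PSME4 at 0.04 mM (adjusted p = 0.043), and 0 elsewhere. The smallest adjusted p of edgeR without the block was 0.157, also for PSME4 at 0.04 mM. The calls below therefore rest on the pairing of the libraries by number.

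Pair by pair, the median log2 ratio over the 50 genes at 0.04 mM was -0.09, -0.22 and -0.18 in replicates 1, 2 and 3, with 31, 44 and 39 genes below 0. At 0.12 mM it was -0.01, -0.22 and -0.14, and at 0.20 mM it was -0.05, -0.07 and -0.16. At 0.28 mM it was 0.02, -0.10 and -0.17, with 23, 37 and 40 genes below 0. Replicate 1 was thus the nearest to no change in every comparison, and at 0.28 mM its median lay above 0.

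Single libraries moved the counts, over all genes too. Numbers in brackets are the calls over all 13828 genes. At 0.04 mM the 12 calls (1858) became 5 without 0.04 mM replicate 2 (963). They became 7 without full-medium replicate 2 (1271) or without full-medium replicate 3 (1419). At 0.12 mM the 9 calls (1149) became 2 without 0.12 mM replicate 2 (550) and 4 without full-medium replicate 2 (744). They became 5 without 0.12 mM replicate 1 (814), without 0.12 mM replicate 3 (796) or without full-medium replicate 3 (690). At 0.20 mM the 14 calls (2050) became 7 without 0.20 mM replicate 1 (988) and 6 without 0.20 mM replicate 3 (1131). They became 8 without full-medium replicate 2 (1615) or without full-medium replicate 3 (1580). The single call at 0.28 mM (287) was lost without 0.28 mM replicate 1 (32), 2 (218) or 3 (24) and without full-medium replicate 2 (60). It became 1 gene higher without full-medium replicate 3 (69) and 6 genes lower without full-medium replicate 1 (775). With replicate 3 left out of every group 5, 3, 5 and 0 calls were left (996, 463, 985 and 1). With the libraries rich in mitochondrial ribosomal RNA left out 10, 4, 12 and 2 were left (1438, 873, 2135 and 338).

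Scaling to the ERCC spike-ins in place of TMM, with the block, gave 0 genes lower and 1 higher at 0.04 mM (1.62% and 2.04% of all genes) and 11 lower and 0 higher at 0.12 mM (8.17% and 0.55%). It gave 2 lower and 0 higher at 0.20 mM (2.02% and 1.02%) and none at 0.28 mM (0.738% and 0.13%). The calls over all genes at 0.12 mM were thus also nearly all lower under this scaling. This scaling moved the median of all genes to -0.18 at 0.12 mM and to -0.13 at 0.28 mM. Relative to that, the median of the proteasome genes was -0.11 at 0.12 mM and -0.07 at 0.28 mM, and it was -0.15 at 0.04 mM and -0.10 at 0.20 mM. At 0.04 against 0.28 mM it turned the median of the proteasome genes from -0.06 to 0.07, beside 0.13 for all genes. Only PSME4 at 0.04 mM of the 36 gene calls in these 4 comparisons passed in every refit with the block, and without the block it did not pass edgeR's test.

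**Figure D2:**
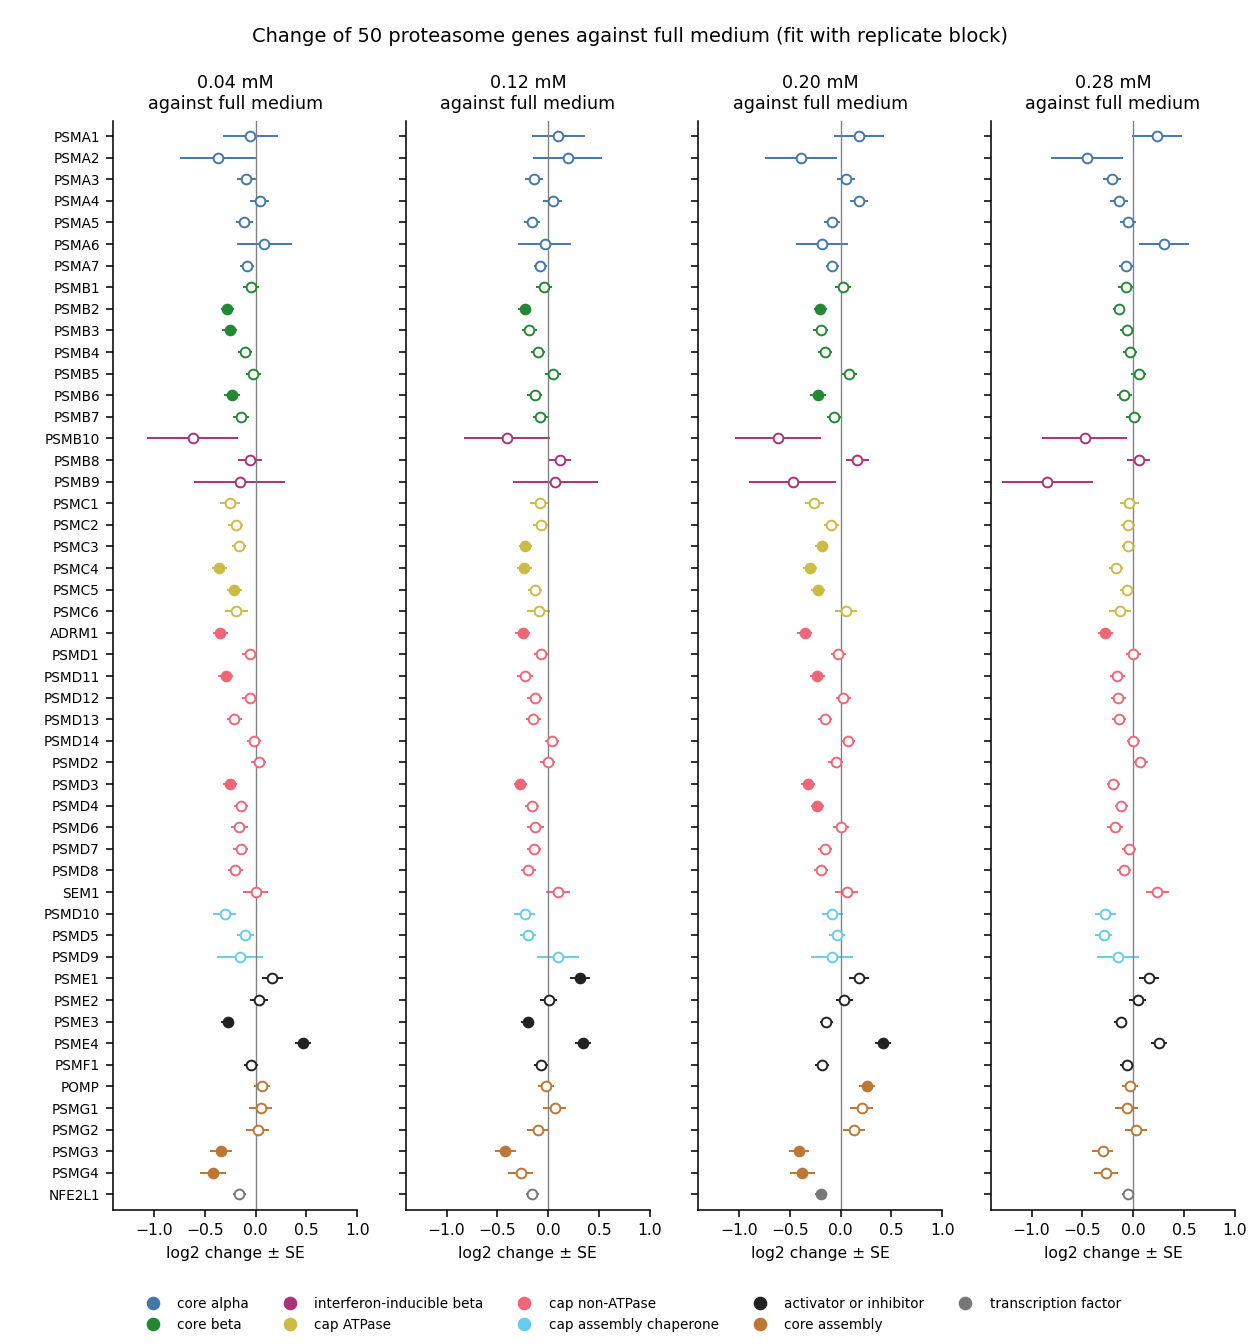
Log2 change ± SE of the 50 tested proteasome genes against full medium at each glutamine concentration (fit with the replicate block), coloured by role, with filled points at adjusted p under 0.05. Most points lie left of 0, PSME4 lies right of 0 in all 4 panels, and ADRM1 is filled in all 4.

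Of the alpha ring, which gates entry to the core, 0 of 7 tested genes rose or fell at any concentration. Over all genes 6.23% fell and 7.21% rose at 0.04 mM, so 0 calls does not set these 7 genes apart. Their changes ranged from -0.37 (PSMA2) to 0.08 (PSMA6) at 0.04 mM and their median was -0.09. PSMA1, PSMA2 and PSMA6, with 659, 296 and 578 counts over all libraries, carry the read-through overlap named above.

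In the beta ring, which holds the proteolytic sites, 3 of 7 tested genes fell at 0.04 mM (PSMB2, PSMB3 and PSMB6). At 0.12 mM 1 fell, at 0.20 mM 2 and at 0.28 mM 0, and 0 rose. Over all genes 6.23, 3.9, 7.15 and 0.846% fell at these concentrations. In full medium PSMB2 had 229, 207 and 205 CPM in replicates 1, 2 and 3. It had 186, 174 and 169 CPM at 0.04 mM, 199, 179 and 166 CPM at 0.12 mM, 197, 191 and 169.7 CPM at 0.20 mM and 198, 200.1 and 184 CPM at 0.28 mM. Every limited library of PSMB2 lay below every full-medium library. PSMB2 (chr1:35599541-35641526, minus strand) encodes a structural, non-catalytic beta subunit, and its change was -0.28 (SE 0.062, adjusted p = 0.00268) at 0.04 mM, -0.23 (SE 0.061, adjusted p = 0.0154) at 0.12 mM, -0.20 (SE 0.061, adjusted p = 0.0247) at 0.20 mM and -0.14 (SE 0.061, adjusted p = 0.253) at 0.28 mM. The call at 0.04 mM passed without any 1 library. Those at 0.12 and 0.20 mM passed in 3 of 6 such refits each. The first was lost without 0.12 mM replicate 2 or 3 or full-medium replicate 3 (adjusted p = 0.051 to 0.0684), the second without 0.20 mM replicate 1 or 3 or full-medium replicate 3 (adjusted p = 0.0665 to 0.103). Both were also lost with replicate 3 left out of every group (adjusted p = 0.175 and 0.228).

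In full medium PSMB3 had 126, 141 and 135 CPM in replicates 1, 2 and 3, and 118, 105 and 113 CPM at 0.04 mM. All 3 libraries at 0.04 mM lay below the full-medium libraries, as did those at 0.12 mM, and the change at 0.04 mM of this structural subunit was -0.26 (SE 0.075, adjusted p = 0.0196). It was lost without 0.04 mM replicate 2 (adjusted p = 0.195), full-medium replicate 2 (0.0922) or full-medium replicate 3 (0.0638). It became -0.14 (adjusted p = 0.227) with offsets for GC content and length and -0.18 (adjusted p = 0.387) with libraries thinned to the shallowest. PSMB3 had 123, 115 and 114 CPM at 0.12 mM, 117, 127 and 106 CPM at 0.20 mM and 123, 131 and 131 CPM at 0.28 mM, and its changes there were -0.19 (adjusted p = 0.117), -0.20 (adjusted p = 0.0603) and -0.06 (adjusted p = 0.744).

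Of the catalytic subunits, PSMB6 (caspase-like site) fell at 0.04 and 0.20 mM, and PSMB5 (chymotrypsin-like site) and PSMB7 (trypsin-like site) passed no test. In full medium PSMB6 had 101, 90.2 and 87.8 CPM in replicates 1, 2 and 3, 85.9, 81.3 and 69.2 CPM at 0.04 mM, 91.4, 77.8 and 85.7 CPM at 0.12 mM, 84.7, 82.9 and 71.4 CPM at 0.20 mM and 97.8, 89.5 and 75.5 CPM at 0.28 mM. The groups at 0.04 and 0.20 mM do not overlap with full medium, and the others do. The changes were -0.23 (SE 0.078, adjusted p = 0.0416) at 0.04 mM and -0.22 (SE 0.075, adjusted p = 0.042) at 0.20 mM, and neither passed in any of the 6 refits that left out 1 library of its comparison (adjusted p = 0.0625 to 0.129 and 0.051 to 0.173). With offsets for GC content and length they became -0.12 (adjusted p = 0.331) and -0.11 (adjusted p = 0.405).

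In full medium PSMB5 had 89.8, 105 and 92 CPM in replicates 1, 2 and 3, 95.3, 94.3 and 90.8 CPM at 0.04 mM, 93.1, 101 and 103 CPM at 0.12 mM, 91.1, 117 and 97.1 CPM at 0.20 mM and 97.5, 108 and 92.1 CPM at 0.28 mM, with overlap everywhere. Its change was -0.02 (SE 0.076, adjusted p = 0.888) at 0.04 mM and 0.09 (SE 0.073, adjusted p = 0.476) at 0.20 mM. In full medium PSMB7 had 132, 126 and 117 CPM in replicates 1, 2 and 3, 121, 115 and 103 CPM at 0.04 mM, 127, 106 and 123 CPM at 0.12 mM, 120.5, 129 and 109 CPM at 0.20 mM and 133, 121 and 121 CPM at 0.28 mM, again with overlap. Its change at 0.04 mM was -0.14 (SE 0.074, adjusted p = 0.21). Whether PSMB6 moved differently from PSMB5 or PSMB7 was not tested.

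The interferon-inducible beta subunits replace the catalytic ones in the immunoproteasome, and 0 of the 3 passed the test at any concentration. Beside 6.23% lower and 7.21% higher over all genes at 0.04 mM, 0 of 3 does not set them apart. PSMB8 was the one with clear expression: 27.5, 35.6 and 32.3 CPM in full medium, 24.6, 32.6 and 37.6 CPM at 0.04 mM, 36.8, 33.9 and 30.4 CPM at 0.12 mM, 35.7, 35.2 and 35.1 CPM at 0.20 mM and 31, 35.3 and 32.4 CPM at 0.28 mM. Its groups overlap, and its change at 0.04 mM was -0.05 (SE 0.12, adjusted p = 0.825). Antisense genes cover 20.6% of the exonic bases of PSMB8, and their reads cannot be told apart where strand use is not given. PSMB9 had 1.39, 1.29 and 1.81 CPM in full medium, 1.21, 0.922 and 1.89 CPM at 0.04 mM, 1.11, 1.26 and 2.66 CPM at 0.12 mM, 0.437, 1.02 and 2.02 CPM at 0.20 mM and 0.624, 0.961 and 0.944 CPM at 0.28 mM. At 0.28 mM its libraries lay below full medium, but at 163 counts in all the change of -0.84 (SE 0.45, adjusted p = 0.358) was not detectable at this depth. PSMB10 had 3.14, 1.62 and 1.03 CPM in full medium, 1.86, 0.922 and 0.811 CPM at 0.04 mM, 1.51, 1.03 and 2.09 CPM at 0.12 mM, 1.22, 1.82 and 0.745 CPM at 0.20 mM and 1.64, 1.08 and 1.42 CPM at 0.28 mM, with overlap at each. It had 204 counts in all and the read-through overlap named above, and its change at 0.04 mM was -0.62 (SE 0.45, adjusted p = 0.396).

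All 6 genes of the cap's ATPase ring, the motor that unfolds the substrate, had negative changes at 0.04, 0.12 and 0.28 mM, and 5 of 6 at 0.20 mM. Of these 2 passed the test at 0.04 mM (PSMC4, PSMC5), 2 at 0.12 mM (PSMC3, PSMC4), 3 at 0.20 mM (PSMC3, PSMC4, PSMC5) and 0 at 0.28 mM. Over all genes 6.23, 3.9, 7.15 and 0.846% fell at these concentrations. In full medium PSMC4 had 123, 117 and 106 CPM in replicates 1, 2 and 3, 93.7, 89.4 and 89.2 CPM at 0.04 mM, 108, 92.8 and 94 CPM at 0.12 mM, 103, 92.3 and 85.4 CPM at 0.20 mM and 117, 106 and 86 CPM at 0.28 mM. All libraries at 0.04 and 0.20 mM lay below all full-medium libraries, and 3 of 3 pairs were lower at every concentration. PSMC4 lies at chr19:39971165-39981764, plus strand, and its change was -0.36 (SE 0.074, adjusted p = 0.00139), the largest fall in the ring, and -0.24 (SE 0.072, adjusted p = 0.0367), -0.30 (SE 0.071, adjusted p = 0.004) and -0.17 (SE 0.071, adjusted p = 0.225) at the next concentrations. The calls at 0.04 and 0.20 mM passed without any 1 library. That at 0.12 mM was lost without 0.12 mM replicate 1 or 2 or full-medium replicate 2 or 3 (adjusted p = 0.0809 to 0.2), and that at 0.04 mM when libraries were thinned to the shallowest (adjusted p = 0.102). With offsets for GC content and length the changes became -0.20 (adjusted p = 0.0704) at 0.20 mM and -0.18 (adjusted p = 0.095) at 0.12 mM, which ended both calls.

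In full medium PSMC3 had 177, 170.3 and 151 CPM in replicates 1, 2 and 3, 166, 147 and 134 CPM at 0.04 mM, 167, 134 and 126 CPM at 0.12 mM, 162, 149 and 127 CPM at 0.20 mM and 180.5, 165 and 138 CPM at 0.28 mM. Each limited group overlaps full medium while every pair at 0.04, 0.12 and 0.20 mM was lower. The change was -0.23 (SE 0.065, adjusted p = 0.0262) at 0.12 mM and -0.19 (SE 0.064, adjusted p = 0.0453) at 0.20 mM, and -0.16 (SE 0.066, adjusted p = 0.1) at 0.04 mM. The first call was lost without 0.12 mM replicate 2 or 3 or full-medium replicate 2 or 3 (adjusted p = 0.0658 to 0.18), and the second without any 1 of the 0.20 mM libraries or full-medium replicate 2 or 3 (adjusted p = 0.077 to 0.156). With offsets for GC content and length the changes became -0.17 (adjusted p = 0.0916) at 0.12 mM and -0.07 (adjusted p = 0.552) at 0.20 mM.

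In full medium PSMC5 had 123, 108 and 105 CPM in replicates 1, 2 and 3, 112, 90.2 and 89.2 CPM at 0.04 mM, 114, 99.5 and 94.2 CPM at 0.12 mM, 115, 93.8 and 80.8 CPM at 0.20 mM and 125, 108 and 90.1 CPM at 0.28 mM, with overlap at each concentration. It fell by 0.21 (SE 0.072, adjusted p = 0.0484) at 0.04 mM and by 0.22 (SE 0.07, adjusted p = 0.0308) at 0.20 mM. The first call was lost without any 1 of the 0.04 mM libraries or full-medium replicate 2 or 3 (adjusted p = 0.0595 to 0.223), and the second without 0.20 mM replicate 2 or 3 or full-medium replicate 2 or 3 (adjusted p = 0.0614 to 0.148). At 0.04 mM the change was -0.09 (adjusted p = 0.714) with thinned libraries. PSMC5 shares 19.5% of its exonic bases with an antisense gene, and PSMC1, which passed no test, shares 75.8%. Whether the counting used strand is not given in the sources used here, so reads from such partners cannot be told apart.

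Among the 13 non-ATPase subunits of the cap, 3 fell at 0.04 mM (ADRM1, PSMD3, PSMD11) and 2 at 0.12 mM (ADRM1, PSMD3). At 0.20 mM 4 fell (ADRM1, PSMD3, PSMD4, PSMD11) and at 0.28 mM ADRM1 alone, and 0 rose. The shares of all genes that fell were 6.23, 3.9, 7.15 and 0.846%. ADRM1 encodes a ubiquitin receptor of the cap that also docks the deubiquitinase UCHL5. In full medium ADRM1 had 165, 168 and 118 CPM in replicates 1, 2 and 3. It had 140.5, 109.8 and 104 CPM at 0.04 mM, 144, 125 and 109 CPM at 0.12 mM, 135, 124 and 93.5 CPM at 0.20 mM and 142, 130.3 and 100.3 CPM at 0.28 mM. Replicate 3 was the lowest of every group, so the groups overlap, and within each replicate number every limited library lay below full medium. ADRM1 lies at chr20:62302896-62308862, plus strand, and its change was -0.35 (SE 0.074, adjusted p = 0.00178) at 0.04 mM, -0.25 (SE 0.072, adjusted p = 0.0258) at 0.12 mM, -0.36 (SE 0.072, adjusted p = 0.00111) at 0.20 mM and -0.28 (SE 0.072, adjusted p = 0.0347) at 0.28 mM.

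With offsets for GC content and length the change of ADRM1 became -0.17 at 0.12 mM (adjusted p = 0.138), -0.19 at 0.20 mM (0.0871) and -0.21 at 0.28 mM (0.105). The call at 0.04 mM was lost without 0.04 mM replicate 2 (adjusted p = 0.0529). That at 0.12 mM was lost without 0.12 mM replicate 1 or 2 or full-medium replicate 2 (0.0917 to 0.207), that at 0.28 mM without any library but full-medium replicate 1 (0.0551 to 0.248), and that at 0.20 mM in none of these refits. ADRM1 has the highest GC content of the 52 genes, 64.2%, and 17.2% of its exonic bases lie under an antisense gene.

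In full medium PSMD3 had 245, 225 and 210.2 CPM in replicates 1, 2 and 3, 217, 183 and 173 CPM at 0.04 mM, 221, 185 and 158 CPM at 0.12 mM, 203, 190.3 and 153 CPM at 0.20 mM and 213, 206 and 176 CPM at 0.28 mM. All pairs were lower at every concentration, and at 0.20 mM the groups do not overlap. PSMD3 encodes a scaffold subunit of the cap's lid (chr17:39980807-39997959, plus strand), and its log2 change was -0.25 (SE 0.066, adjusted p = 0.00914) at 0.04 mM, -0.28 (SE 0.065, adjusted p = 0.00642) at 0.12 mM, -0.32 (SE 0.064, adjusted p = 0.00105) at 0.20 mM and -0.19 (SE 0.064, adjusted p = 0.104) at 0.28 mM. Of the 3 calls, that at 0.04 mM was lost without 0.04 mM replicate 2 (adjusted p = 0.0967), and all 3 were lost with replicate 3 left out of every group (adjusted p = 0.0904, 0.158 and 0.0591).

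PSMD11, another lid subunit, had 209.9, 195 and 193 CPM in full medium, 186, 181 and 124 CPM at 0.04 mM, 197, 167 and 149.7 CPM at 0.12 mM, 187, 179 and 146 CPM at 0.20 mM and 202, 187 and 149.8 CPM at 0.28 mM. The value of 124 CPM in 0.04 mM replicate 3, the shallowest library, was the lowest, and the groups at 0.04 and 0.20 mM do not overlap with full medium. Its change was -0.29 (SE 0.075, adjusted p = 0.00814) at 0.04 mM and -0.23 (SE 0.073, adjusted p = 0.0311) at 0.20 mM. Without 0.04 mM replicate 3 the first became -0.21 (adjusted p = 0.087), and without full-medium replicate 3 it became -0.19 (adjusted p = 0.0834). The second was lost without any 1 of the 0.20 mM libraries or full-medium replicate 3 (adjusted p = 0.0625 to 0.266). With replicate 3 left out of every group the changes were -0.13 (adjusted p = 0.334) at 0.04 mM and -0.14 (adjusted p = 0.316) at 0.20 mM.

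PSMD4, the ubiquitin receptor also known as S5a, had 156, 155 and 139 CPM in full medium, 144, 134 and 131 CPM at 0.04 mM, 152, 136 and 115 CPM at 0.12 mM, 145, 130.1 and 110.1 CPM at 0.20 mM and 147, 148 and 121 CPM at 0.28 mM. Every pair was lower, the groups at 0.20 mM and in full medium overlap, and the change there was -0.23 (SE 0.067, adjusted p = 0.0199). That call was lost without 0.20 mM replicate 2 or 3 or full-medium replicate 2 or 3 (adjusted p = 0.0593 to 0.0945) and with offsets for GC content and length (adjusted p = 0.23). SEM1, the smallest cap subunit, had 33.3, 26.3 and 23.4 CPM in full medium, 29.2, 25.5 and 29.7 CPM at 0.04 mM, 32.3, 25.1 and 32.5 CPM at 0.12 mM, 32.3, 26.9 and 27.4 CPM at 0.20 mM and 37.2, 34.6 and 26.3 CPM at 0.28 mM. It overlapped everywhere and passed no test, with the largest change 0.24 (SE 0.11, adjusted p = 0.298) at 0.28 mM. The scaffold subunit gene PSMD2, the most abundant of the cap, was the upper end of the range at 0.04 mM at 0.03 and passed no test.

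The cap has its own assembly chaperones, PSMD5, PSMD9 and PSMD10, which hold the ATPases until the ring is complete. None of the 3 passed the test at any concentration, where 6.23% of all genes fell and 7.21% rose at 0.04 mM. With 3 genes this does not set them apart. Their changes ran from -0.31 (PSMD10) to -0.10 (PSMD5) at 0.04 mM, from -0.23 (PSMD10) to 0.10 (PSMD9) at 0.12 mM, and from -0.29 (PSMD5) to -0.15 (PSMD9) at 0.28 mM. PSMD9 is among the genes with read-through overlap and had 873 counts in all.

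The alternative activators went in both directions. PSME4, which encodes PA200, a nuclear activator linked to histone degradation, rose at 3 concentrations, as no other of the 50 genes did, and PSME3, which encodes the nuclear activator PA28 gamma, fell at the 2 lowest. In full medium PSME4 had 173, 205 and 231 CPM in replicates 1, 2 and 3. It had 259, 302 and 277 CPM at 0.04 mM, 236, 304 and 231 CPM at 0.12 mM, 271, 288 and 248 CPM at 0.20 mM and 230.2, 251 and 239.8 CPM at 0.28 mM. Every limited library was above the full-medium library of its number, narrowly so in replicate 3 at 0.12 mM, and the groups at 0.04, 0.12 and 0.20 mM do not overlap with full medium. The mean went from 203 ± 29.1 CPM in full medium to 279 ± 21.4 CPM at 0.04 mM (SD, n = 3), and to 257 ± 41, 269 ± 20.5 and 240.4 ± 10.6 CPM at the higher concentrations.

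The change of PSME4 (chr2:53864069-53970993, minus strand) was 0.46 (SE 0.079, adjusted p = 0.000188) at 0.04 mM, 1.38-fold, 0.34 (SE 0.079, adjusted p = 0.00552) at 0.12 mM, 0.41 (SE 0.078, adjusted p = 0.000627) at 0.20 mM and 0.25 (SE 0.079, adjusted p = 0.0848) at 0.28 mM. The calls at 0.04 and 0.20 mM passed without any 1 library, and the adjusted p at 0.04 mM lay between 4.8e-08 and 0.0198 over all refits with the block. That at 0.12 mM was lost without 0.12 mM replicate 2 (adjusted p = 0.0733) or full-medium replicate 2 (adjusted p = 0.0595) and with ERCC scaling (0.17, adjusted p = 0.417).

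In full medium PSME3 had 336, 347 and 309.9 CPM in replicates 1, 2 and 3, 303, 282 and 240.2 CPM at 0.04 mM, 321, 297 and 249 CPM at 0.12 mM, 334, 321 and 253 CPM at 0.20 mM and 351, 316 and 252 CPM at 0.28 mM. At 0.04 mM no library reached the lowest of full medium, and at the other concentrations the groups overlap. The log2 change of PSME3 (chr17:42833397-42843760, plus strand) was -0.27 (SE 0.065, adjusted p = 0.0046) at 0.04 mM and -0.20 (SE 0.065, adjusted p = 0.0457) at 0.12 mM, and it was -0.14 (adjusted p = 0.142) and -0.12 (adjusted p = 0.349) at 0.20 and 0.28 mM. The first call passed without any 1 library and was lost with replicate 3 left out of every group (adjusted p = 0.0922), and the second was lost without any 1 library but full-medium replicate 1 (adjusted p = 0.0936 to 0.233).

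PSME1, a subunit of the interferon-inducible PA28 ring, had 39.8, 43.4 and 59.3 CPM in full medium and 52.6, 53.8 and 70.7 CPM at 0.12 mM, overlapping groups with all 3 pairs higher. It rose at 0.12 mM by 0.31 (SE 0.10, adjusted p = 0.0452), a call named here after its values were seen. It passed in 2 of 6 refits without a library, the others giving adjusted p = 0.112 to 0.198 (without 0.12 mM replicate 1 or 3 or full-medium replicate 1 or 2). Its partner PSME2 and the inhibitor gene PSMF1 passed no test.

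Among the chaperones that assemble the core, PSMG3 and PSMG4 fell and POMP rose at 1 concentration. PSMG3 and PSMG4 pair with each other and work on the alpha ring. In full medium PSMG3 had 45.3, 44.8 and 41.1 CPM in replicates 1, 2 and 3, 38.5, 31.3 and 34 CPM at 0.04 mM, 36, 28.9 and 33.4 CPM at 0.12 mM, 34.3, 36.5 and 28.3 CPM at 0.20 mM and 37.1, 38.2 and 31.4 CPM at 0.28 mM. All 12 limited libraries lay below all full-medium libraries. The change of PSMG3 (chr7:1567332-1570032, minus strand) was -0.34 (SE 0.10, adjusted p = 0.0272) at 0.04 mM, -0.42 (SE 0.10, adjusted p = 0.00803) at 0.12 mM, -0.41 (SE 0.10, adjusted p = 0.00557) at 0.20 mM and -0.30 (SE 0.10, adjusted p = 0.104) at 0.28 mM. The call at 0.20 mM passed without any 1 library. That at 0.04 mM was lost without 0.04 mM replicate 2 or full-medium replicate 2 or 3 (adjusted p = 0.0627 to 0.211), and that at 0.12 mM without 0.12 mM replicate 2 (adjusted p = 0.105). With offsets for GC content and length the changes became -0.23 (adjusted p = 0.124) at 0.04 mM and -0.27 (adjusted p = 0.0763) at 0.20 mM. The call at 0.20 mM was also lost with replicate 3 left out of every group (adjusted p = 0.0705), and thinned libraries gave -0.21 (adjusted p = 0.634) at 0.12 mM.

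PSMG4 had 24.8, 26.2 and 25.1 CPM in full medium, 19.9, 15.7 and 21.6 CPM at 0.04 mM, 21.8, 17.8 and 23.9 CPM at 0.12 mM, 18.3, 21.7 and 18.7 CPM at 0.20 mM and 20.4, 20.1 and 23 CPM at 0.28 mM, and here too every limited library lay below full medium. Its change was -0.42 (SE 0.13, adjusted p = 0.0276) at 0.04 mM and -0.38 (SE 0.12, adjusted p = 0.0339) at 0.20 mM, and -0.27 (adjusted p = 0.186) and -0.27 (adjusted p = 0.269) at 0.12 and 0.28 mM. The call at 0.04 mM was lost without 0.04 mM replicate 2 or full-medium replicate 2 (adjusted p = 0.217 and 0.13), and with libraries thinned to the shallowest its change was 0.02. That at 0.20 mM was lost without 0.20 mM replicate 1 or 3 or full-medium replicate 1 or 2 (adjusted p = 0.0554 to 0.175) and with offsets for GC content and length (adjusted p = 0.082). PSMG4 had 2858 counts in all libraries, and 14.99% of its exonic bases lie under an antisense gene.

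POMP, the chaperone that helps the beta ring assemble and mature its active sites, had 68.1, 90.2 and 77.2 CPM in full medium, 79.1, 98.3 and 67.3 CPM at 0.04 mM, 77.2, 83.4 and 70.1 CPM at 0.12 mM, 90.8, 112 and 79.6 CPM at 0.20 mM and 69.6, 90.8 and 70.3 CPM at 0.28 mM. Replicate 2 was the highest of every group, and all groups overlap. It rose at 0.20 mM by 0.26 (SE 0.079, adjusted p = 0.0219), and its changes at 0.04, 0.12 and 0.28 mM were 0.06 (adjusted p = 0.671), -0.02 (adjusted p = 0.922) and -0.03 (adjusted p = 0.894). The call was lost without 0.20 mM replicate 1 or 2 or full-medium replicate 1 or 2 (adjusted p = 0.0692 to 0.127), and with offsets for GC content and length the change was 0.09 (adjusted p = 0.57). PSMG1 and PSMG2 passed no test.

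NFE2L1 (chr17:48048359-48061545, plus strand) had 256, 206 and 198 CPM in full medium, 225, 177 and 188 CPM at 0.04 mM, 215, 186 and 189.7 CPM at 0.12 mM, 206, 188 and 181 CPM at 0.20 mM and 237, 198 and 199.6 CPM at 0.28 mM. The groups overlap, and every pair at 0.04, 0.12 and 0.20 mM was lower. It fell at 0.20 mM by 0.19 (SE 0.062, adjusted p = 0.0323), and its changes at 0.04, 0.12 and 0.28 mM were -0.16 (adjusted p = 0.0842), -0.16 (adjusted p = 0.118) and -0.05 (adjusted p = 0.725). The call was lost without 0.20 mM replicate 1 or 3 or full-medium replicate 1 or 2 (adjusted p = 0.0644 to 0.218), and with offsets for GC content and length (adjusted p = 0.167). NFE2L1 is regulated largely at the protein level, which these counts do not measure.

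**Figure D3:**
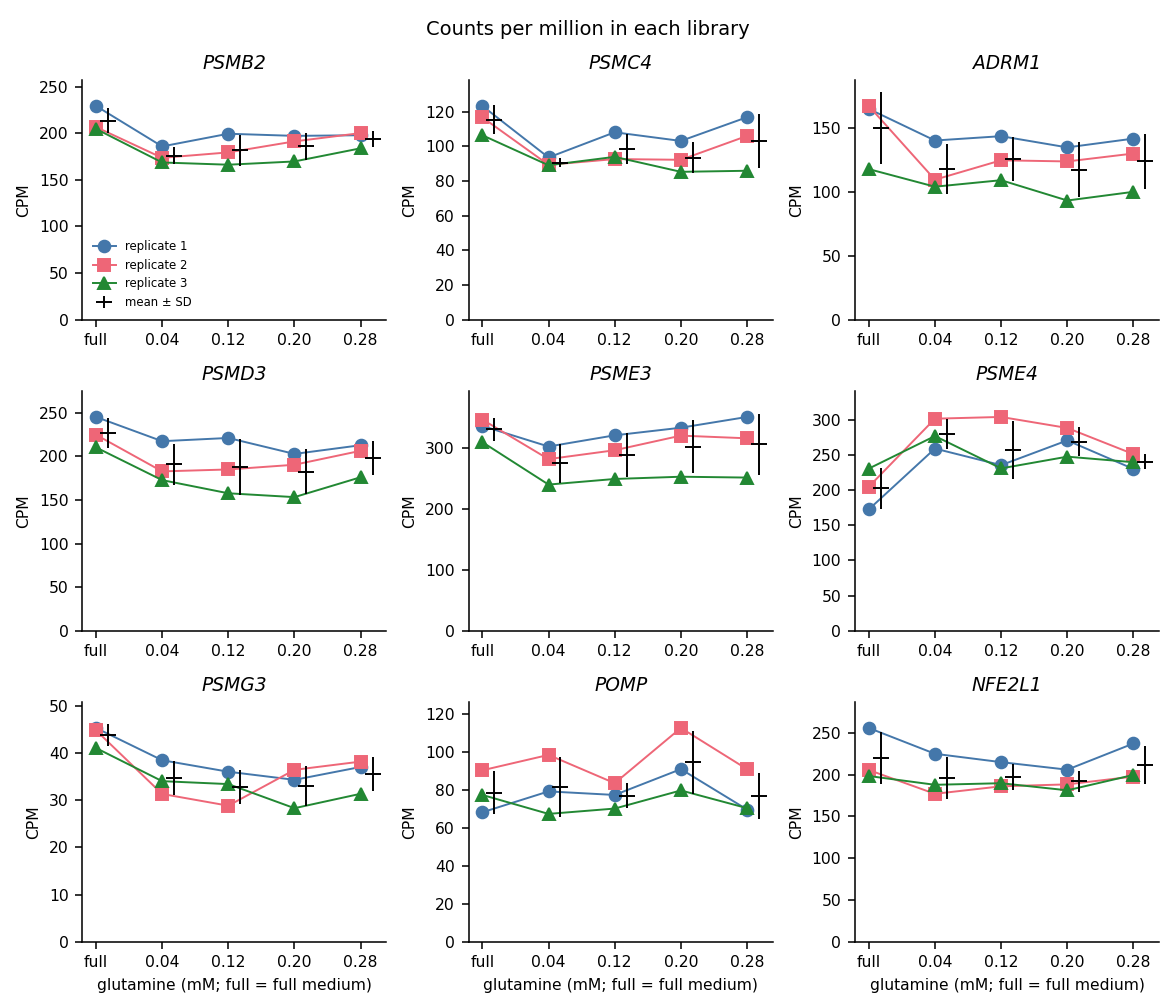
CPM of 9 proteasome genes in every library against the glutamine group, with lines joining libraries of the same replicate number and black marks for the mean ± SD of 3 libraries. PSMG3 and PSMB2 lie below full medium in every limited library, PSME4 lies above it at 0.04, 0.12 and 0.20 mM, and replicate 3 is lowest for ADRM1 throughout.

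Between the limited concentrations no proteasome gene passed the test. At 0.04 against 0.28 mM edgeR with the block called 0 of 50, where 0.0434% of all genes passed, and without the block it called 0 of 50 and 0% of all genes. With the block 6 genes were lower and 2 higher at an unadjusted p under 0.05, and DESeq2 called 0 with and without the block. The smallest adjusted p was that of PSME4, 0.390, with a change of 0.21. The slope over log2 glutamine concentration in the 12 limited libraries called 0 of 50 and 0% of all genes with and without the block. With the block 1 slope was below and 3 above 0 at an unadjusted p under 0.05, and DESeq2 called 0. For the counts at an unadjusted p the share of all genes was not computed, so they are not read as a result. The smallest adjusted p of a slope was 0.453 (PSME3). A stepwise change with concentration was thus not detectable for these genes. With full medium included at 2.5 mM the slope with the block called 16 of the 50, 1 lower and 15 higher with more glutamine, where 8.11% of all genes were lower and 7.53% higher. Without the block it called 1, lower, and 1.14% of all genes.

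GC content moved with the changes. The offsets below remove any trend with GC content or length, whatever its source, so the part of GC content was not tested. Over the 50 genes, Pearson's r between GC content and log2 change was -0.39 at 0.04 mM, -0.35 at 0.12 mM, -0.47 at 0.20 mM and -0.18 at 0.28 mM (Spearman's rho -0.36, -0.36, -0.44 and -0.11), values across genes that share their libraries. The genes that fell at 0.04 mM had a median GC content of 52.7% and those that passed no test 46.8%. At 0.20 mM the medians were 53.8 and 46.8%. With offsets per library for GC content and length, 9 genes fell and 1 rose at 0.04 mM, beside 6.18% and 5.14% of all genes in that fit. At 0.12 mM 6 fell and 2 rose (4.41% and 3.33% of all genes), at 0.20 mM 7 fell and 1 rose (4.14% and 2.94%), and at 0.28 mM 1 fell and 0 rose (0.933% and 0.998%). These were not all the same genes. Of the calls with offsets, 8 at 0.04 mM, 6 at 0.12 mM, 5 at 0.20 mM and 0 at 0.28 mM were also calls without offsets. The medians of the proteasome genes with offsets were -0.12, -0.12, -0.13 and -0.06, beside -0.0152, -0.0187, -0.0158 and -0.0147 for all genes. Transcript length showed Spearman's rho of 0.10, 0.15, 0.03 and 0.03 with the change.

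**Figure D4:**
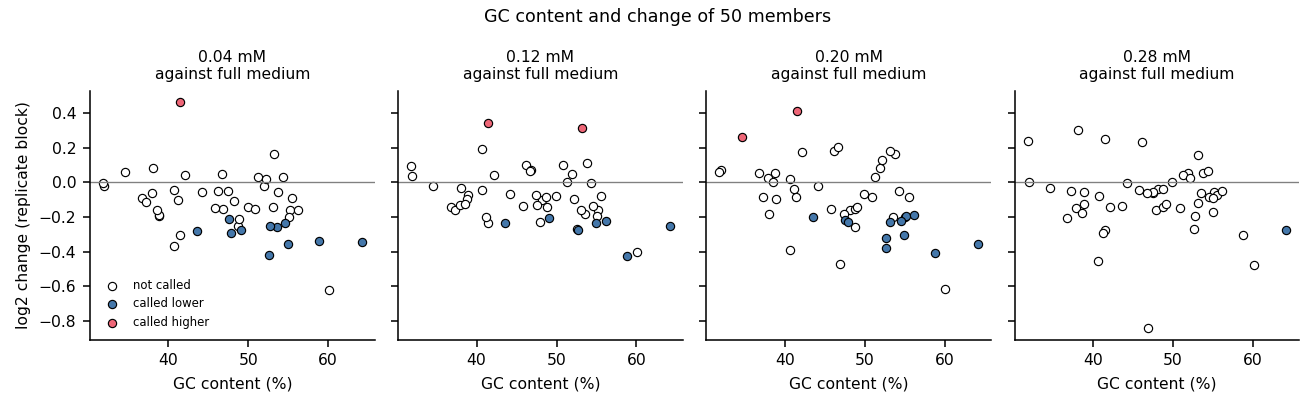
GC content of the longest transcript (%) against log2 change from full medium for the 50 tested proteasome genes at each glutamine concentration, with blue points for genes that fell and red points for genes that rose. At 0.20 mM the genes that fell have a median GC content of 53.8% and those that passed no test 46.8%.

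Of 38 partner genes of the pathway (ubiquitin genes and shuttle receptors, activating enzymes, proteasome-bound enzymes, downstream peptidases and the NFE2L2 group), 37 were tested. At 0.04 mM 3 fell and 6 rose with a median change of -0.06, beside -0.15 for the proteasome genes and 0.01 for all genes. At 0.12 mM 2 fell and 2 rose, beside 3.9% and 4.41% of all genes. At 0.20 mM it was 4 and 4 (7.15% and 7.67%), and at 0.28 mM 0 and 0 (0.846% and 1.23%). All these counts are from the fit with the block. In the NFE2L2 group 3 of 5 genes rose at 0.04 mM and 0 fell, where 7.21% of all genes rose and 6.23% fell. NFE2L2, the stress factor that binds the same element as NFE2L1, went from 99.0 ± 4.29 CPM in full medium to 119 ± 13.4 CPM at 0.04 mM (SD, n = 3) and rose by 0.25 (SE 0.069, adjusted p = 0.0117). Of the small MAF proteins, with which both factors pair, MAFF went from 29.1 ± 4.67 to 42.4 ± 2.13 CPM (0.52, SE 0.12, adjusted p = 0.00267) and MAFG from 42.1 ± 10.3 to 54.7 ± 7.26 CPM (0.37, SE 0.098, adjusted p = 0.0104). The repressor gene KEAP1 and MAFK passed no test there.

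The class I antigen partners of the inducible subunits (11 genes, all tested) had a median change of 0.04 at 0.04 mM. There 1 fell, the chaperone gene CALR, from 1194 ± 218 to 1018 ± 141 CPM (-0.22, SE 0.077, adjusted p = 0.0481), and 0 rose. Over all genes 6.23% fell and 7.21% rose. CALR also fell at 0.12 mM (-0.26, adjusted p = 0.0281) and 0.20 mM (-0.36, adjusted p = 0.00165). The peptide-trimming enzyme gene ERAP1 had 20.7 ± 3.74 CPM in full medium and 25.5 ± 2.95 CPM at 0.04 mM, a change of 0.31 (SE 0.11) with adjusted p = 0.0662. The class I light chain gene B2M had a change of 0.18 at 0.04 mM (adjusted p = 0.122) and rose at 0.20 mM (0.35, adjusted p = 0.0022), and TAPBP had 0.17 at 0.04 mM (adjusted p = 0.138). Without the block none of the calls named for these 2 lists passed (adjusted p = 0.179 to 0.757).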

How the data were processed

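RNA was measured in 15 libraries of MCF10A cells, made from total RNA depleted of ribosomal RNA, with ERCC spike-ins, per the labels' protocols. The authors deposited raw read counts per gene for all libraries. The builds hg38 and GRCh38.p14 are named in the submitters' processing notes, and for aligner, counter, annotation release and strand setting the entry is: not given in the sources used here. Groups follow the sample titles.

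Counts were tested with edgeR 4.0.16 (R 4.3.3): genes were kept by filterByExpr (minimum count 10, minimum total 15), scaled by TMM and fitted over all 15 libraries with the quasi-likelihood test, and p-values were adjusted by Benjamini-Hochberg over 13828 genes. The design had no replicate block, and the replicate block was an alternative. Residuals of same-numbered libraries correlated in 30 of 30 pairs (r = 0.184 to 0.489), and 15 of 15 libraries correlated best with their own number, so values with the block are given first. The pairing comes from these data and not from a stated batch. P-values measure the spread between these samples, which may be technical in part.

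TPM were computed from the counts with GENCODE 29 exon lengths (available for all 52 genes). Alternatives were DESeq2 1.42.0, its size factors, ERCC scaling, no filter, 5 CPM in 3 libraries, compared groups only, libraries left out, and offsets for GC content and length (a spline with 4 degrees of freedom). Thinning to the shallowest library, the principal transcript's length and leaving out the 5 read-through genes were added after seeing the data. Thinning was 1 random draw, kept only for 0.04 and 0.12 mM against full medium, so its spread between draws is not known. On simulated counts for 0.04 mM against full medium (13828 genes), the fit with the block recovered 76% of genes changed by 1 on the log2 scale and 35% of those changed by 0.5, with 1 false call among 112. Without the block it recovered 55% and 6%. The means of these simulated counts came from a fit on replicate number, so a gain from the block was built in. Every called change of a proteasome gene here was under 0.5 in size, so these rates do not describe the calls above.

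The genes and lists were chosen with earlier results of these data known. Values in every library are given for genes called in a comparison with full medium (at most the 14 with the smallest adjusted p) and for PSMB5 to PSMB10, POMP, ADRM1, SEM1 and NFE2L1, and up to 4 genes are named per partner list, of which some are not reported here. Outside these genes and lists, genes are described only by counts, shares and medians over all genes, and protein data were not analysed here.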

Additional observations from a re-analysis of the deposited data

How the results depend on the processing

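The medians over the proteasome genes against full medium stayed negative with the replicate block under each alternative run, from -0.19 to -0.09 at 0.04 mM, -0.29 to -0.07 at 0.12 mM, -0.16 to -0.05 at 0.20 mM and -0.20 to -0.03 at 0.28 mM. The counts of called genes did not stay. Adding the replicate block to the fit without it took 0 calls to 12 at 0.04 mM, 9 at 0.12 mM, 14 at 0.20 mM and 1 at 0.28 mM, and DESeq2 without the block called 1 at 0.04 mM. Bare numbers in brackets below are the calls over all genes tested. With the block, 12 calls at 0.04 mM (1858) became 7 with compared groups only (1171) and 1 with ERCC scaling (506). They became 5 with replicate 3 left out (996) and 5 with thinned libraries (701). The 9 calls at 0.12 mM (1149) became 0 with compared groups only (272) and 4 without the libraries rich in mitochondrial ribosomal RNA (873). They became 3 with replicate 3 left out (463) and 3 with thinned libraries (340). The 14 calls at 0.20 mM (2050) became 7 with compared groups only (1652), 2 with ERCC scaling (421) and 9 with no filter (1739). They became 5 with replicate 3 left out (985) and 8 with GC and length offsets (978), 5 of these 8 being among the 14. The 1 call at 0.28 mM (287) became 2 with the 5 CPM filter (355), DESeq2 (339) or no filter (385). It also became 2 without the libraries rich in mitochondrial ribosomal RNA (338), and 0 with ERCC scaling (120) or replicate 3 left out (1). Leaving out 1 library gave 5 to 17, 2 to 13, 6 to 15 and 0 to 6 calls in the 4 comparisons. Over all genes it gave 963 to 2088, 550 to 1438, 988 to 1880 and 24 to 775. Among the proteasome genes it gave 0 to 0 calls without the block, at 0.04 against 0.28 mM and for the slope. The slope over all 15 libraries called 16 with the block, beside 15.6% of all genes, and 1 without, beside 1.14%. PSMG4 at 0.04 mM turned to 0.0218 with thinned libraries (adjusted p = 0.978). The median level taken from the values per library, 76.7 TPM, became 85.7 with the longest transcript and 97.0 with the principal transcript. The cause of these changes was not tested. Leaving out the shallowest library, 0.04 mM replicate 3 with 3704170 counts, gave 11 calls at 0.04 mM, and 1338 over all genes.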
